A study of Mus musculus with 2 samples.

Results

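DNA replication genes and the E2F factors of the G1/S transition were compared between RAW264.7 cells infected with MSCV encoding mir-155 and the same line infected with the empty MSCV vector. RAW264.7 is a mouse macrophage-like cell line, MSCV is a retroviral vector, and miR-155 is a microRNA of activated immune cells. The set holds 38 listed genes of the 18193 that had a probeset with a single gene symbol, and the brightest such probeset, by the mean log2 signal of both arrays, stood for each gene. After a filter that kept the upper 50% of genes by that mean, 37 of the 38 remained among 9097 genes. The mean signal of the dimmest gene kept, 25.8, is called the signal floor. Both arms were grown in medium with 10% serum, infected in the presence of polybrene and put under puromycin at 7 µg/ml. From the survivors, single clones were picked by limiting dilution, and RNA from 5 of them was combined in each arm. Either pool was measured on 1 Affymetrix array, which left no replicate. No p-value could therefore be computed, and all differences describe these 2 arrays only. Variation between clones, cultures and arrays cannot be told apart from an effect of the microRNA.

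The signals were deposited on a linear scale, with medians over all 45101 probesets of 15.4 (empty vector) and 14.1 (miR-155). Pairs of signals are given in this order throughout. A log2 ratio below 0 means a lower signal on the miR-155 array. The median log2 ratio of the 9097 genes was −0.048, and against it small ratios of single genes were read. In the absence of replicates, a local SD was taken from the scaled median absolute deviation of the ratio among the 500 kept genes nearest in signal. This local SD is a spread between genes, not an error between replicates. For the replication genes it ran from 0.11 to 0.32. Of 15 macrophage markers 14 passed the filter, whereas the mannose receptor Mrc1 was dim at 10.3 and 12.9. Those that passed went both ways between the arrays. Csf1r read 6040 and 5095 and Lyz2 6058 and 4731, but Cd14 read 1728 and 4145 and Fcer1g 2250 and 3658. All 20 measured markers of B, T and NK, neutrophil, fibroblast and erythroid cells were left out by the filter, with signals from 1.23 to 26.5. Their signals summed to 144 and 153, those of the macrophage markers to 36375 and 39213.

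DNA replication starts when the origin recognition complex, Cdc6 and Cdt1 load the ring-shaped MCM helicase onto origins in G1. Cdc45 and the GINS complex then join the ring and turn it into the active helicase of the fork, where the polymerases copy DNA with the sliding clamp PCNA, its loader RFC and the single-strand binding protein RPA. Many of these genes are transcribed at the G1/S boundary under E2F factors, which the retinoblastoma family holds back. Ribonucleotide reductase and thymidylate synthase supply the deoxynucleotides.

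The mouse microRNA is shown, as RefSeq gives it, with the seed (bases 2 to 8) in capitals, because the seed is the part that pairs with target mRNAs. Both mature arms are the mouse RefSeq sequences of GRCm38.p6, on the plus strand at chr16:84714143-84714165 for the 5p arm and chr16:84714182-84714202 for the 3p arm.
mmu-miR-155-5p: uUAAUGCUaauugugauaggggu
mmu-miR-155-3p: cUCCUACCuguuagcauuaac
The labels do not state the exact insert. The probesets analysed measure mRNA and not these mature forms, and seed matches in the replication mRNAs were not analysed here.

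The replication genes differed little between the arrays. Of the 37 genes, 36 were within 1.5-fold, 1 (Mcm2) was at least 1.5-fold lower on the miR-155 array and 0 were as much higher. Among all genes kept, 5.99% were lower by at least 1.5-fold and 5.32% higher. None of the 37 reached 2-fold, a difference seen in 1.92% of all genes kept in the higher direction and in 1.43% in the lower. A log2 ratio below 0 was found in 25 of the 37 genes (67.6%), beside 58.0% of all genes kept. The median was −0.093, against −0.048 for all genes kept. With each array divided by its median, which moves every ratio up by 0.12, 16 of the 37 were below 0 (43.2%), beside 38.7% of all genes. The ratios ran from −0.59 for Mcm2 to 0.22 for Pold1. Within 0.1 of 0 lay 17 of the 37, a share that was not computed for all genes kept. Large ratios are rarer among bright genes, and 34 of the 37 belonged to the upper 25% by signal. In that bright fraction 2.09% of all genes passed 1.5-fold in the lower direction and 2.42% in the higher. The median there was −0.091 for the 34 genes and −0.049 for all genes. At least 2 local SDs below the local median lay 3 of the 37 (Mcm2, Cdt1 and Orc5), beside 4.46% of all genes kept, and 0 lay as far above it, beside 5.34%.

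**Figure D1:**
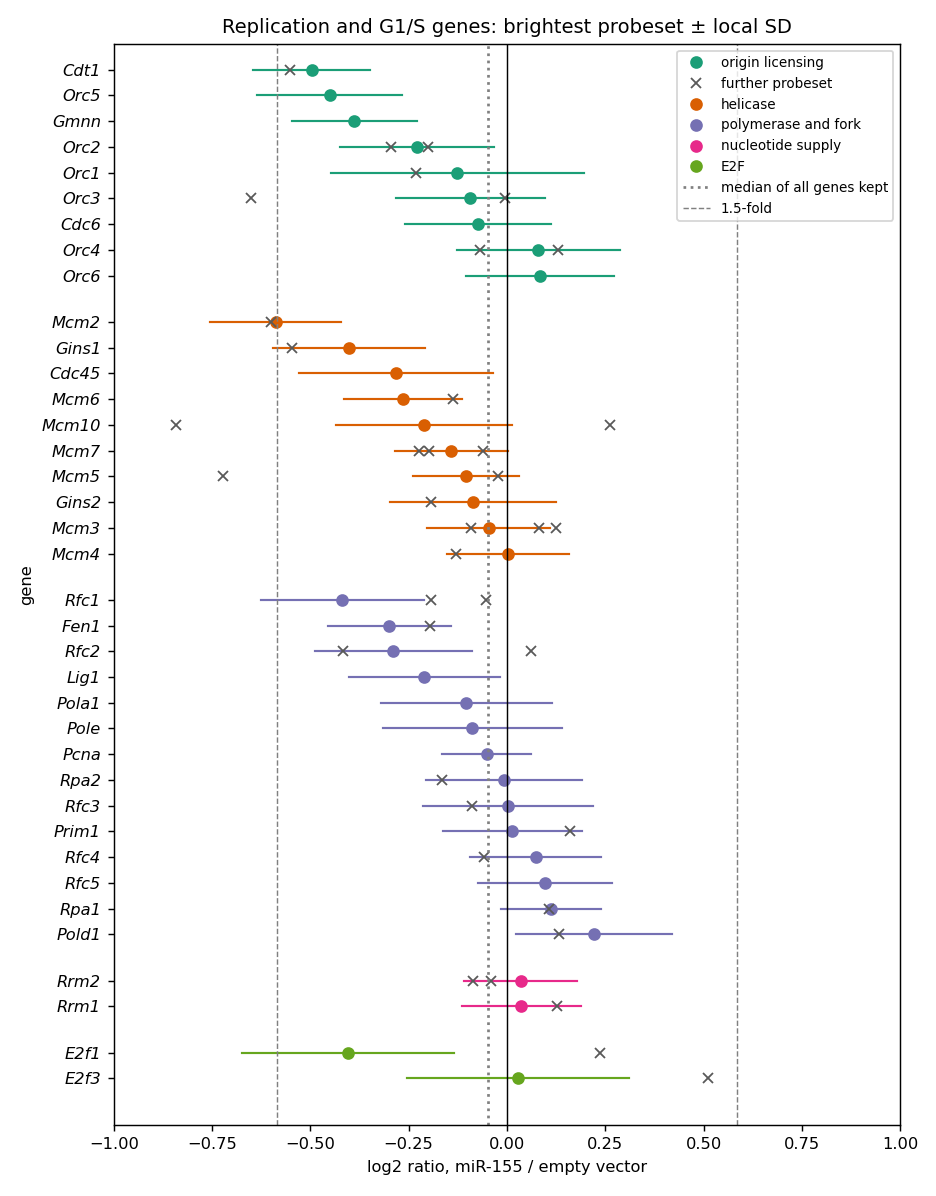
Log2 ratio (miR-155 over empty vector, x axis) of the 37 genes kept, in order within each role group. Filled points are the brightest probeset, lines span 1 local SD to each side, crosses are further probesets of the gene with both readings at or above the signal floor, dashed lines mark 1.5-fold and the dotted line the median of all genes kept (−0.048). Mcm2 at −0.59 is the only filled point beyond a dashed line.

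**Figure D2:**
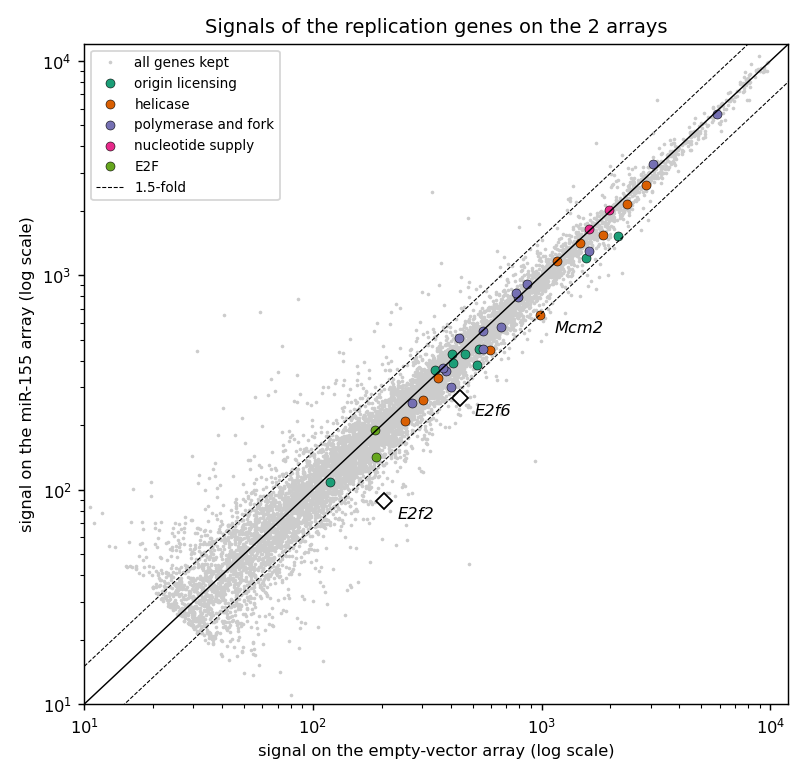
Signal on the empty-vector array (x axis) against signal on the miR-155 array (y axis), both on log scales, for all genes kept (grey) and the replication genes coloured by role. The solid line marks equal signal and the dashed lines 1.5-fold. The coloured points run from Orc1 at 119 and 109 to Pcna at 5862 and 5654 and follow the solid line, with Mcm2 at the lower dashed line and the E2F genes E2f2 and E2f6 (diamonds, from the wider G1/S list) below it.

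The helicase genes had the lowest median of the 3 role groups with more than 2 genes kept: −0.18 over 10 genes, against −0.13 over 9 genes of origin licensing and −0.030 over 14 polymerase and fork genes. Of the 10 helicase genes, 9 had a ratio below 0 and 1 of these was at least 1.5-fold lower. The background shares of all genes kept are 58.0% below 0 and 5.99% lower by at least 1.5-fold. All 10 helicase genes belonged to the upper 25% by signal, where 2.09% of all genes were lower by at least 1.5-fold. The order of helicase and licensing depended on the probesets: licensing was the lower, at −0.24, with all probesets averaged (helicase −0.21) and with only those at the floor averaged (helicase −0.23). With 1 array per arm the differences between role groups were not tested.

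Mcm2, a subunit of the helicase ring and a substrate of the Cdc7 kinase that fires origins, read 981 and 653 (log2 ratio −0.59, local SD 0.17). A further probeset read 726 and 479, a ratio of −0.60. Both probesets therefore gave the lower signal on the miR-155 array by nearly the same ratio. The 1.5-fold threshold lies at 0.585 on the log2 scale, so Mcm2 passed it by a margin far smaller than its local SD. The call was lost (0 genes of the set lower by 1.5-fold) with an offset of 50 or 16 and with each of the 3 other scalings. Over all 10 alternatives its ratio ran from −0.59 to −0.47.

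The other 5 ring subunits had smaller ratios, although all 6 proteins are parts of 1 ring. Mcm6 read 1862 and 1551 (−0.26, and −0.14 in its further probeset). Mcm7 read 2370 and 2148 (−0.14), and its 3 further probesets were all lower as well. Mcm5 read 2847 and 2649 (−0.10). Mcm3, with 1468 and 1421 (−0.047), and Mcm4, with 1165 and 1167 (0.0027), were almost equal on both arrays by their brightest probesets. The further probeset of Mcm4 gave −0.13, and those of Mcm3 at the floor ran from −0.093 to 0.12. Of the 5 subunits, Mcm6 lay farthest from its local median, at 1.32 local SDs below it. A dim further probeset of Mcm5 (53.1 and 32.2) gave −0.72, while its bright one gave −0.022.

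Among the factors that join or activate the ring, Gins1, a subunit of the GINS complex, had the lowest ratio, with signals of 594 and 449 (−0.40, local SD 0.19) and a further probeset at −0.55. Its partner Gins2 read 352 and 331 (−0.087, and −0.19 in its further probeset). Cdc45, which binds the ring with GINS, read 254 and 208 (−0.28, local SD 0.25), and 0.025 with its probeset below the floor averaged in. Mcm10, which is needed to start unwinding and is no ring subunit, read 303 and 262 (−0.21). Its further probesets went both ways, at −0.84 (68.1 and 38.0) and 0.26 (26.7 and 32.0). All 4 of these factors were lower by their brightest probeset and none reached 1.5-fold.

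In origin licensing, Cdt1, the loader of the MCM ring, and its inhibitor geminin (Gmnn) were both lower. Cdt1 read 2151 and 1524 (1.41-fold lower, ratio −0.50, local SD 0.15). A further probeset above the floor read 725 and 494 (−0.55). Averaging in the remaining probeset, below the floor at 0.51 and 8.28, turned its ratio to 0.99. Gmnn read 1569 and 1199 (−0.39, local SD 0.16) and had no further probeset. Cdc6, the ATPase that works with Cdt1, read 410 and 389 (−0.075), so the loaders did not share 1 ratio.

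The 6 subunits of the origin recognition complex ran from −0.45 to 0.084, with a median of −0.11. Orc5 was the lowest at 520 and 381 (1.37-fold lower, local SD 0.18), measured by 1 probeset. Orc2 read 533 and 455 (−0.23), and its 2 further probesets gave −0.30 and −0.20. Orc1, the subunit whose level varies over the cell cycle, was the dimmest gene kept in the set at 119 and 109 (−0.13, local SD 0.32). Orc3 read 461 and 432 (−0.093), with further probesets at −0.0054 and −0.65. Orc4 (341 and 360, ratio 0.079) and Orc6 (406 and 431, ratio 0.084) were slightly higher on the miR-155 array. The further probesets of Orc4 at the floor went both ways, at −0.068 and 0.13. Apart from Orc5, each ratio of a brightest probeset lay within 1 local SD of the local median.

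At the fork the genes went both ways, 8 below 0 and 6 above it, with a median of −0.030. Among all genes kept, 58.0% were below 0. Pcna, the sliding clamp and the brightest reading of the set, was nearly equal on both arrays at 5862 and 5654 (−0.052, local SD 0.11). Of the replicative polymerases and primase, the genes Pola1, Prim1 and Pole were within 1 local SD of their local medians. Pola1, the catalytic subunit of polymerase alpha, read 384 and 357 (−0.10, but 0.59 with its probeset below the floor averaged in), its primase partner Prim1 784 and 792 (0.014) and Pole, the catalytic subunit of polymerase epsilon, 270 and 254 (−0.089). Pold1, the catalytic subunit of polymerase delta, had the highest ratio of all 37 genes at 436 and 509 (0.22, local SD 0.20), with 0.13 in its further probeset.

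By their brightest probesets, the 5 subunits of the clamp loader RFC split in direction. The large subunit Rfc1 read 401 and 300 (−0.42, local SD 0.21), but its further probesets gave only −0.19 and −0.054. Rfc2 read 554 and 454 (−0.29), with further probesets at −0.42 and 0.062. Rfc3 (370 and 371), Rfc4 (867 and 912) and Rfc5 (770 and 824) had ratios of 0.0030, 0.073 and 0.097. The further probesets of Rfc3 and Rfc4 were below 0, at −0.089 and −0.058, and Rfc5 had no further probeset. By brightest probeset the loader thus held both the lowest ratio of the fork group and 3 ratios at or just above 0. The split in direction depended on that choice of probeset.

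The single-strand binding subunits Rpa1 (3076 and 3322, ratio 0.11) and Rpa2 (555 and 552, ratio −0.0078) were near 0 by their brightest probesets. The further probeset of Rpa1 gave 0.11 too, but that of Rpa2 (544 and 485) gave −0.165. The genes that finish Okazaki fragments were both lower. The flap nuclease Fen1 read 1605 and 1304 (−0.30, local SD 0.16, further probeset −0.20) and the DNA ligase Lig1 read 663 and 573 (−0.21, local SD 0.19).

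The nucleotide-supply genes showed no difference that exceeded the local SD. Rrm1, the large subunit of ribonucleotide reductase, read 1604 and 1645 (0.037), and the small subunit Rrm2 read 1974 and 2023 (0.035). Their further probesets ran from −0.086 to 0.13. Tyms, thymidylate synthase, did not pass the filter: none of its 4 probesets reached the signal floor of 25.8, and the brightest read 15.6 and 17.7. A probeset annotated to Tyms together with its pseudogene Tyms-ps read 555 and 550. Its signal cannot be assigned to either copy and was left out of the counts.

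The 2 E2F factors of the set differed between their own probesets, E2f1 in direction and E2f3 in size only. E2f1, an activator of G1/S transcription, read 189 and 143 with its brightest probeset (−0.40, local SD 0.27) and 63.1 and 74.4 with the further one above the floor (0.24). E2f3, another activator, read 187 and 190 (0.028), and 37.9 and 54.1 with the further probeset (0.51). No direction is given for either gene.

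The wider G1/S list held the largest difference near this pathway. Of its 20 genes kept, 2 were at least 1.5-fold lower (E2f2 and E2f6), 0 as much higher, and the median was −0.12. These shares stand beside 5.99% and 5.32% of all genes kept. E2f2, the third activator E2F, read 204 and 88.9 (2.29-fold lower, ratio −1.20, local SD 0.32). A further probeset read 83.4 and 37.2 (−1.16). As given above, 1.43% of all genes kept passed 2-fold in this direction. E2f6, a repressor that acts without the retinoblastoma proteins, read 438 and 267 (1.64-fold lower, −0.71, local SD 0.21), and its other probeset was below the floor at 3.56 and 11.3. Averaging both turned its ratio to 0.47. The rest of the family was named after its values were seen. The atypical repressors E2f7 (183 and 123, ratio −0.57) and E2f8 (413 and 336, ratio −0.30) were also lower. E2f4 was at −0.092 and E2f5 at 0.25, with −0.15 in the further probeset of E2f5. Of the dimerisation partners, Tfdp1 was at 0.049 and the dimmer Tfdp2 (94.8 and 65.6) at −0.53, with −0.68 in its further probeset above the floor. Of the 8 genes E2f1 to E2f8, 6 were below 0, beside 58.0% of all genes kept.

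Of the S-phase cyclins and their kinase, Ccne1 had the lowest ratio, at 408 and 343 (−0.25, local SD 0.21, further probeset −0.095). Ccne2 read 469 and 467 (−0.0076), Ccna2 1446 and 1489 (0.042) and Cdk2 308 and 315 (0.033). These 4 were named after their values were seen. The same holds for Mycn, which read 9355 and 9369, with further probesets at −0.22 and 0.56, and for Myc, whose 1 probeset was below the floor at 22.2 and 19.1.

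Other replication genes, 51 listed and 48 kept, resembled the set. None of the 48 differed by 1.5-fold, beside 5.99% lower and 5.32% higher among all genes kept. In the upper 25% by signal, which held 36 of the 48, these shares of all genes were only 2.09% and 2.42%. Of the 48, 35 had a ratio below 0 (72.9%, beside 58.0% of all genes kept), and the median was −0.076. The lowest were Chtf18, a subunit of an alternative clamp loader (73.0 and 51.2, ratio −0.51, local SD 0.39), Pole3, a small subunit of polymerase epsilon (338 and 246, ratio −0.46, but −0.088 in its further probeset), and Cad, the first enzyme of pyrimidine synthesis (556 and 412, ratio −0.43, but −0.24 and 0.49 in its further probesets). The highest were Mcm9 (36.8 and 48.1, ratio 0.39, local SD 0.55), the deoxycytidine kinase Dck (979 and 1265, ratio 0.37, with 0.37 and −0.18 in its further probesets) and Rrm2b, the small subunit of ribonucleotide reductase used outside S phase (111 and 131, ratio 0.24). Chtf18 and Mcm9, whose local SDs were wide, had no further probeset at the floor, and that of Rrm2b gave 0.30.

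Mitosis genes and ribosomal protein genes were set beside the replication genes as the lists nearest in cell function. None of the 31 mitosis genes kept differed by 1.5-fold, beside 5.99% lower and 5.32% higher among all genes kept. In the upper 25% by signal, which held 30 of the 31, these shares of all genes were only 2.09% and 2.42%. Of the 31, 17 were below 0 (54.8%, beside 58.0% of all genes kept), and the median was −0.018. They ran from −0.27 for the scaffold protein Anln, −0.25 for the kinase Aurka and −0.21 for the kinesin Kif23 to 0.23 for Cdc20, 0.25 for the kinesin Cenpe and 0.42 for the kinetochore gene Ndc80. The further probesets of Cenpe (−0.42) and Cdc20 (−0.22 and −0.076) had the opposite sign. Of the replication set, 10 genes had a ratio below that of Anln, but the share of all genes kept below it was not computed. Among the lowest 10% of ratios of all genes kept were 3 of the 37 set genes. The median of the 19 ribosomal protein genes kept was 0.015, with 42.1% below 0. The replication median minus the mitosis median was −0.075, a difference that was not tested.

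**Figure D3:**
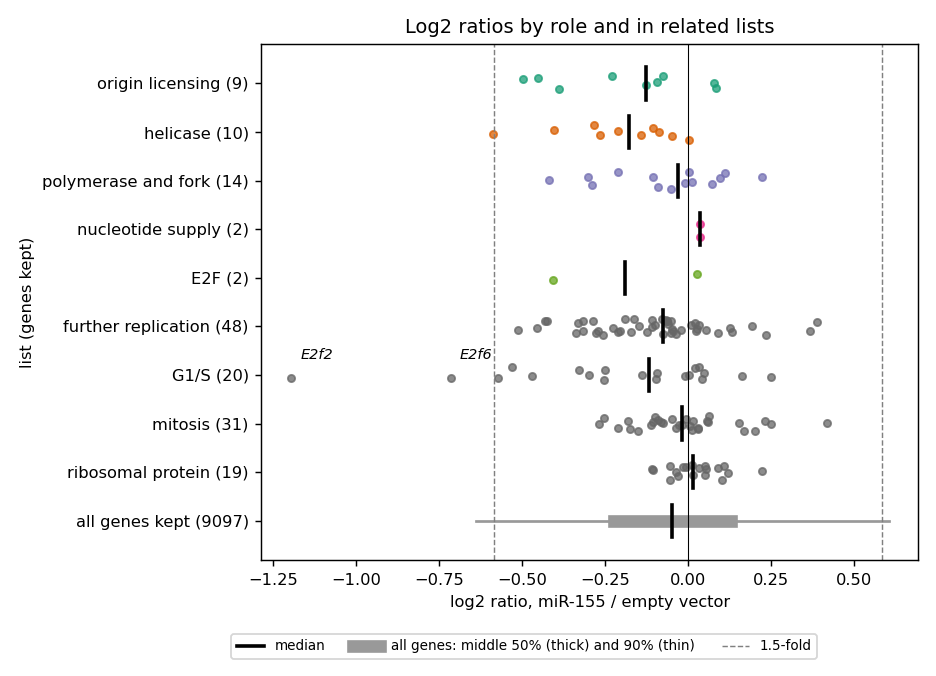
Log2 ratio (x axis) of each gene kept, by role group and in the related lists, with the number of genes in brackets. Coloured points are the replication set, grey points other lists, black bars the medians; the lowest line gives the middle 50% and 90% of all genes kept. The helicase median of −0.18 lies left of the mitosis median of −0.018, and E2f2 and E2f6 of the G1/S list lie beyond the dashed 1.5-fold line.

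The probesets of a gene offer a second reading on the same 2 RNA pools. A further probeset that reached the floor on both arrays was found for 27 of the 37 genes, 39 such probesets in all. The median further ratio had the same sign as the brightest probeset in 21 genes and the opposite sign in 6. Across the 27 genes the 2 readings correlated with Pearson's r = 0.61 and Spearman's rho = 0.65, a description across genes that share both arrays. Their median absolute difference was 0.11 and the largest 0.64, in E2f1.

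The RefSeq promoter table (GRCm38.p6, 250 bases before to 50 after each annotated start) held 40 promoters of 32 of the 38 genes. The letters of an E2F site were searched in 4 forms (TTTCCCGC, TTTCGCGC, TTTGGCGC and TTTGCCGC) on both strands, and those of the CCAAT box, which the factor NF-Y binds, as CCAAT on both strands. An E2F form was in 32.5% of the 40 promoters and in 2.26% of all 32851 promoters of the table. A CCAAT box was in 57.5% and 37.4%. By gene, 13 of the 32 held an E2F form, 4 of the 7 helicase genes in the table among them, and 21 held a CCAAT box, including all 7 of those helicase genes. Of 28 mitosis genes in the table, 1 held an E2F form and 20 a CCAAT box. An E2F form was also in 7 of 15 genes of the wider G1/S list and in 12 of 42 further replication genes. A CCAAT box was in 7 and 19 of these. Over all 27025 genes of the table, 2.6% held an E2F form and 41.1% a CCAAT box. A match of letters is no evidence of binding.

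Because only 4 fixed forms were searched, the matched bases are alike by construction. A selection of 10 of the 17 stretches around E2F matches, from genes of the ring, its loaders and the fork, is printed with the matched bases in capitals. Those of Orc3, Pold1, Lig1 and E2f3 and the second sites of Mcm3, Mcm7 and Rfc3 are left out. In Mcm5 and Mcm6 forms on both strands overlap to a longer run, and in Mcm7 the last base of the match begins a CCAAT box. Each is written on the strand of its gene.
Mcm5, chr8:75109347-75109376, plus strand: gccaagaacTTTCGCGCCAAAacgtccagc
Mcm6, chr1:128359795-128359824, minus strand: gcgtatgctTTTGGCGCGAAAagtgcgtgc
Mcm6, chr1:128359736-128359761, minus strand: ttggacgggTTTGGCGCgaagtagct
Mcm7, chr5:138171851-138171876, minus strand: gtgacgacgTTTCGCGCcaatttcgg
Mcm3, chr1:20820277-20820302, minus strand: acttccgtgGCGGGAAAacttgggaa
Cdt1, chr8:122568038-122568063, plus strand: aactaccttTTTGGCGCcatggcgca
Cdc6, chr11:98908004-98908029, plus strand: cggtggagaGCGGGAAAtcgcctggg
Orc1, chr4:108579418-108579443, plus strand: cggttagtgGCGCGAAAagttttctc
Pola1, chrX:93632277-93632302, minus strand: catcacaggGCGCCAAAtgcactccc
Rfc3, chr5:151651202-151651227, minus strand: gtcgcacgcTTTCGCGCtcgcgggaa
Mcm2, the gene with the lowest ratio, had none of the 4 forms in its window. Its 250 bases before the start (chr6:88898781-88899030, minus strand) are printed with the CCAAT box, which lies on the opposite strand as ATTGG, in capitals.
Mcm2: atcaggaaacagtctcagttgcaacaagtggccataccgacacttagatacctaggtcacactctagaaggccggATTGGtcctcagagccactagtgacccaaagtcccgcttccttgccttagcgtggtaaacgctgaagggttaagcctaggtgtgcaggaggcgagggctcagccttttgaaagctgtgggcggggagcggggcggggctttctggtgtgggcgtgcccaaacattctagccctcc
The ratios of genes with and without an E2F form overlapped over most of their range. The median log2 ratio was −0.10 over the 13 genes with a form (−0.50 to 0.22) and −0.030 over the 18 kept genes without (−0.59 to 0.11). For the CCAAT box the order was the other way, with −0.052 over the 21 genes with a box and −0.15 over the 10 without. Neither difference was tested.

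**Figure D4:**
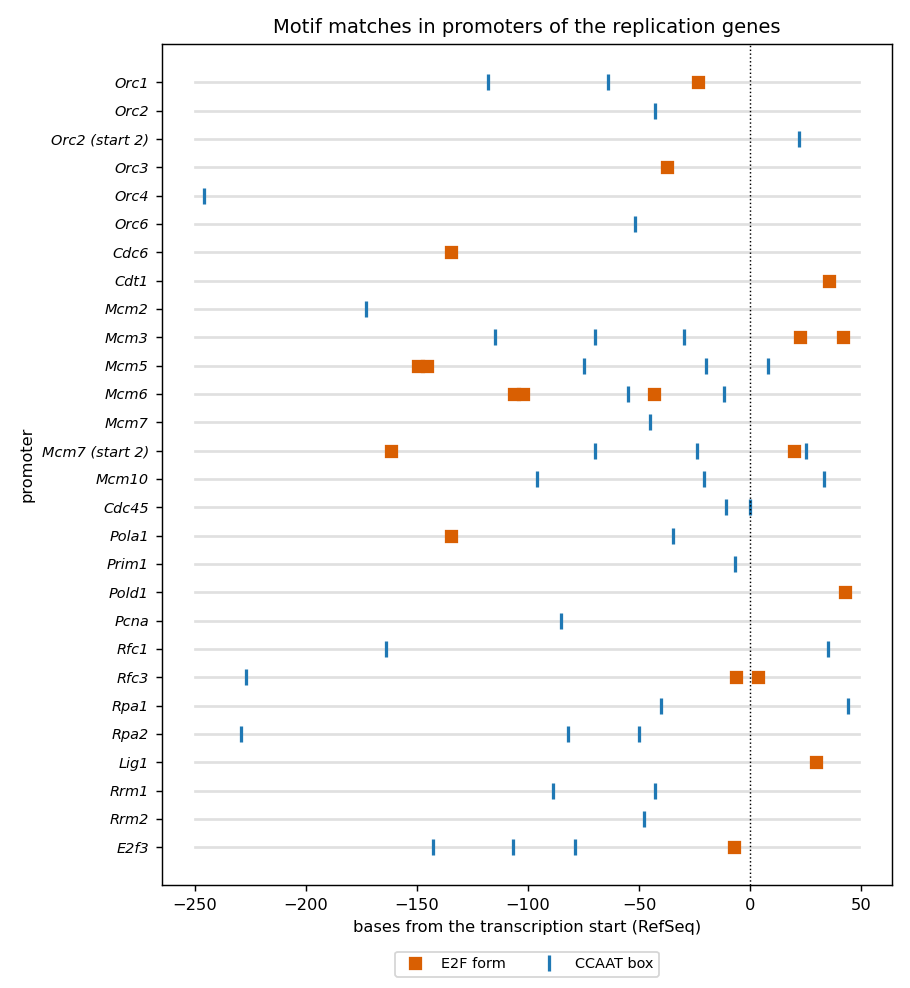
Positions of E2F forms (squares) and CCAAT boxes (bars) in promoters of the set that held at least 1 match, in bases from the RefSeq transcription start (x axis, dotted line at the start). Where 2 promoters of a gene held a match, the second is labelled as such. A bare gene name does not always stand for the first listed promoter, as in Orc4, Lig1 and E2f3. Squares appear in Mcm3, Mcm5, Mcm6 and Mcm7 and are missing from Mcm2, Mcm10, Cdc45, Pcna, Rrm1 and Rrm2.

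Role-group medians were compared across settings after the median of all genes kept had been subtracted, which takes out the shift between scalings. Over the 11 settings, the reported one included, this difference ran from −0.18 to −0.12 for the helicase genes and from −0.19 to −0.050 for origin licensing. It ran from −0.015 to 0.030 for the fork genes and from 0.0068 to 0.041 for the mitosis genes. The helicase and licensing medians thus lay below that of all genes in each of these settings. Several settings could hardly change this. The helicase median itself stayed at −0.18 in the upper 25% of signal, with no filter and with readings raised to the floor. Dividing by the array median and centring on the genes kept repeat the reported differences by construction. The settings are therefore not independent checks.

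**Figure D5:**
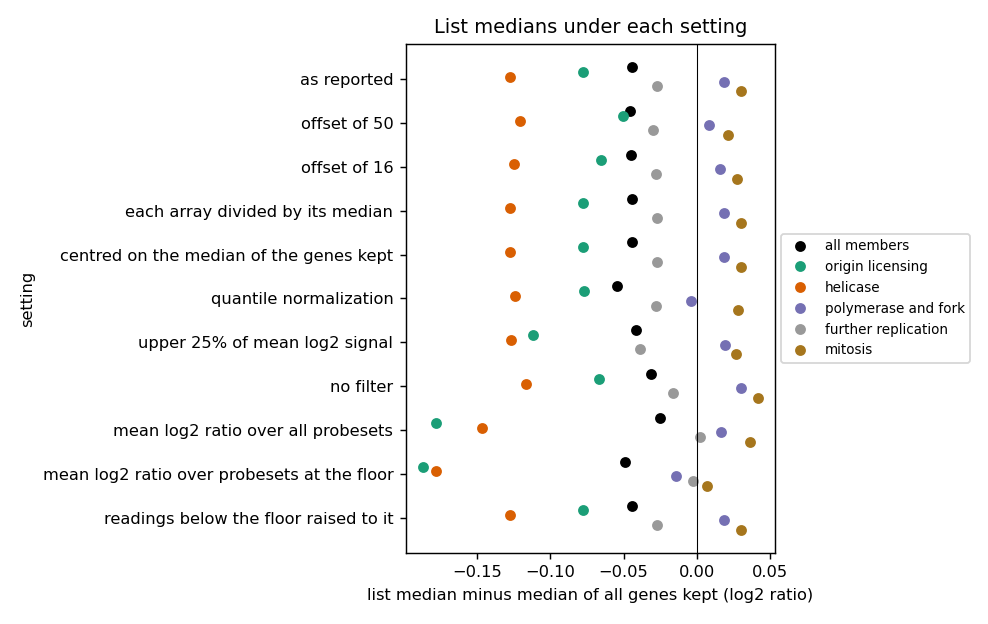
Median log2 ratio of each list minus the median of all genes kept (x axis) under the reported setting and 10 alternatives (y axis). Helicase and licensing points lie left of 0 in every row, fork points on both sides of 0 and mitosis points right of 0. The rows for division by the array median and centring on the genes kept repeat the reported row by construction. The row for readings raised to the floor equals it too, as no gene kept in the plotted lists read below the floor.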

How the data were processed

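RNA of 2 pools of RAW264.7 clones was measured on 1 array each. The authors deposited linear intensities of probesets; per the labels' protocols the material was biotin-labelled and handled by the Affymetrix procedures. The summarisation, background correction and scaling were not stated (not given in the sources used here). Gene names came from the platform annotation (34945 with 1 symbol, 932 with several, 9160 without; 64 control probesets left out), with symbols checked by Entrez identifier in the RefSeq table of GRCm38.p6 (34741 found, 0 changed).

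The log2 ratio used the deposited values with no offset. Genes were called at 1.5-fold, with 2-fold beside it. The steps were tested on simulated data. All 38 genes were named, with the 1.5-fold genes of the wider lists or else their 3 highest and 3 lowest. The members and lists were chosen with earlier results of these data known. Alternatives changed the offset, scaling, filter and probesets; averaging only probesets at the floor was chosen after seeing the data. Python 3.11.15, numpy 2.4.6 and pandas 2.3.3 were used. The number of arrays limits the precision.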

Additional observations from a re-analysis of the deposited data

How the results depend on the processing

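No paired analysis was possible because each arm has 1 array. Of 297 list results under an alternative, 253 kept their value within the stated spread (a count within 1.5 times, a median within its median local SD over the root of its gene count). That spread treats the genes of a list as independent, although all share 1 pair of arrays. Counts of 0 that stayed 0 are among the 253, as are settings that could not change a list. The number is therefore no measure of stability. The count of set genes at least 1.5-fold lower, 1 as reported, was 0 in the whole set and in the helicase group with an offset of 50 or 16, with median or kept-gene centring and with quantile normalization. With all probesets averaged, dim ones included, it was 2 in the set and 1 in licensing, and genes at least 1.5-fold higher numbered 2 in the set, 1 in licensing, 1 at the fork, 1 in further replication and 2 in G1/S. In that setting 4 further replication and 3 mitosis genes were at least 1.5-fold lower, the medians of licensing, nucleotide supply and E2F were −0.24, −0.16 and 0.25, and E2f6 turned to 0.47 through a probeset below the floor. The ratios of Cdt1 (0.99), Pola1 (0.59), Cdc45 (0.025), E2f1 (0.23), Orc4 (−0.86) and Rrm1 (−0.29) also changed sign there. So did those of Mcm4 (−0.063), Rfc3 (−0.043) and Rrm2 (−0.031), which were close to 0 as reported. With only probesets at the floor averaged, the medians were −0.23 for helicase, −0.24 for licensing and 0.093 for E2F. In the upper 25% of signal 1 G1/S gene was at least 1.5-fold lower, and with no filter 1 ribosomal protein gene was.

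With each array divided by its median, list medians were 0.027 for the set, −0.0067 for licensing, −0.056 for helicase, 0.090 at the fork, 0.16 for nucleotide supply, 0.044 for further replication, 0.0027 for G1/S, 0.10 for mitosis and 0.13 for ribosomal proteins. Centred on the genes kept they were −0.045 for the set, −0.027 for further replication, −0.069 for G1/S, 0.030 for mitosis and 0.063 for ribosomal proteins. With quantile normalization they were −0.057 for the set, −0.031 for further replication and 0.025 for mitosis. No detection calls were used. The local SD was taken over the brightest probesets of the genes kept, so the reliability of dimmer probesets was not measured. With 1 array per arm no replicate could be left out.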
